A study of Homo sapiens with 6 samples.

Results

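The 7 genes described here encode the machinery that holds, escorts and cleaves the SREBP factors: the factors SREBF1 and SREBF2, the escort SCAP, the retention proteins INSIG1 and INSIG2, and the proteases MBTPS1 and MBTPS2. They were chosen by gene symbol, as the rows of the deposited table that carry these names, and each symbol matched 1 row, so that the set held 7 of the 20289 genes of the table. The cells were SW480, an established human cell line from a colon adenocarcinoma, sequenced as MUCP1-FLAG, labelled as overexpressing the microprotein MUCP1 with a FLAG tag (3 libraries), and as LV-NC, the control, labelled as wild type with the treatment "None / LV-NC" (3 libraries). Cells of either kind grew in L-15 with 10% fetal bovine serum and antibiotics, and the libraries were made with an mRNA kit. The comparison asks which genes changed with raised MUCP1, which the study set out to relate to metabolic and signalling pathways.

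The labels call the libraries biological replicates and give no clone, passage, day or batch. The p-values below set group differences against the variation between these libraries, and how far the cultures were independent is not stated. No row of the table is named MUCP1, and the overexpression was not checked here. The library totals were 17333329 to 23282604 counts in MUCP1-FLAG and 18867369 to 21534908 in LV-NC. Of 9 colon epithelial markers 7 exceeded 1 CPM, the reads of a gene scaled to library size, CDX1 had no read in any library and CEACAM5 at most 2 reads. The summed level of the 9 was 6842 to 7049 CPM in MUCP1-FLAG and 6473 to 7088 in LV-NC. EPCAM, CDH1 and VIL1 were lower in MUCP1-FLAG (log2 fold changes −0.33, −1.06 and −0.40), and KRT19 was higher (0.17), each at an edgeR adjusted p of at most 0.0322. The 6 fibroblast markers together reached 0.692 to 1.08 in MUCP1-FLAG and 1.02 to 1.20 in LV-NC, with COL1A2, COL3A1 and DCN at 0. The 4 endothelial markers together reached 2.23 to 4.15 in MUCP1-FLAG and 2.41 to 3.34 in LV-NC, nearly all of it VWF, with PECAM1, CDH5 and KDR at 0. Of the 5 blood cell markers, which together reached 7.17 to 9 in MUCP1-FLAG and 12.5 to 13.3 in LV-NC, nearly all reads were of CD68, which was lower in MUCP1-FLAG (−0.62), and PTPRC was at 0. The part of these marker differences in the results below was not tested.

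SREBP precursors are made as membrane proteins of the endoplasmic reticulum, where they are bound to SCAP. When sterols are abundant, SCAP binds an INSIG protein and the complex is retained. When sterols run low, SCAP carries the precursor in COPII vesicles to the Golgi, where the site-1 protease and then the site-2 protease cut it and release the part that enters the nucleus. SREBP-2, the product of SREBF2, is known mainly for activating genes of cholesterol synthesis and uptake, and SREBP-1, the product of SREBF1, mainly genes of fatty acid synthesis. INSIG1 and SREBF2 are themselves known targets of the factors, and transcription of the SREBP-1c form of SREBF1 is known to be raised by the oxysterol receptors called LXR. The counts are per gene, so the SREBP-1a and SREBP-1c forms were not told apart, and cleavage is a protein step that mRNA does not measure.

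The promoters of both pairs of paralogues are shown because 1 INSIG gene passed the test and the other did not, and the SREBF genes passed it in opposite directions. They are RefSeq windows (GRCh38.p14) from 250 bases before to 50 bases after an annotated start, read 5′ to 3′ on the strand of the gene. All 7 genes had such a window, and INSIG2 had a second, overlapping window that is not shown. Capitals mark matches, on either strand, to the core of the sterol regulatory element, TCACCCCAC, the CCAAT box and the palindromic E-box CACGTG.
INSIG1 promoter, chr7:155297628-155297927, plus strand: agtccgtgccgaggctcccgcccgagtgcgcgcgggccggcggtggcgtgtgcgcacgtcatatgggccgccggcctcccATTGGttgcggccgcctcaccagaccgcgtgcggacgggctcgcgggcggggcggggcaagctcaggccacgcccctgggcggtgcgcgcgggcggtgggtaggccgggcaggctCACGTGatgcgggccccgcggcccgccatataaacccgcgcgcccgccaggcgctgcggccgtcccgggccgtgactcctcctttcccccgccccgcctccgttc
INSIG2 promoter, chr2:118088221-118088520, plus strand: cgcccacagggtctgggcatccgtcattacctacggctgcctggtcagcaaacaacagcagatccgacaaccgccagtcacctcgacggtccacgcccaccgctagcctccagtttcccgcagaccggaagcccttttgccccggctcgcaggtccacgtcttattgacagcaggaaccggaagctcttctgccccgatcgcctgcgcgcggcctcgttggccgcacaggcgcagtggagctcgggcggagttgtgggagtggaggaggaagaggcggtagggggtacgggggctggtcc
SREBF2 promoter, chr22:41832855-41833154, plus strand: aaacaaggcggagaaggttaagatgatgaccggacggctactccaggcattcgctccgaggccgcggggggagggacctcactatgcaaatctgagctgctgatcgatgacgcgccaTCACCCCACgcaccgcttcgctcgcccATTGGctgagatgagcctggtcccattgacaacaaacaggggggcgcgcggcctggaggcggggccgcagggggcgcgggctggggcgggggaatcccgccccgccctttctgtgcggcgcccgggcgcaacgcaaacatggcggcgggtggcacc
SREBF1 promoter, chr17:17836937-17837236, minus strand: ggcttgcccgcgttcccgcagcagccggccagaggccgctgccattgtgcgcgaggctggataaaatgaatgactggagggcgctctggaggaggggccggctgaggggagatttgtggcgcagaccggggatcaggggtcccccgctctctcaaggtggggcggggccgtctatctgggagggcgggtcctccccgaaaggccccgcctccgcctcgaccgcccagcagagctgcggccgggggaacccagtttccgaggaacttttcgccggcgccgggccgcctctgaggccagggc

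The SREBF2 window held TCACCCCAC from position −133 relative to the start, and an inverted CCAAT box (ATTGG) from −106. Of all 27305 genes with a window, 146 (0.535%) held TCACCCCAC on either strand, and 379 (1.39%) held TCACNCCAC, which allows any base after TCAC and so includes the first motif. SREBF2 was the 1 gene of the 7 with either form. Neither form was in any of 16 known sterol targets of SREBP-2 with a window, and 1 of 12 known fatty acid targets of SREBP-1 held both. The INSIG1 window held an inverted CCAAT box from −170 and CACGTG from −55. CACGTG was also present in SCAP, from −58, and in 8.77% of all genes. A CCAAT box was found in INSIG1 and SREBF2 and in 39.7% of all genes. The GC box GGGCGG, not capitalised, was found in 5 of the 7 genes, MBTPS1 and MBTPS2 being the others, and in 48.3% of all genes. The type of repeat known for LXR, AGGTCA repeated in the same direction after any 4 bases, was in none of the 7 and in 7 of 27305 genes. It was also in none of 9 LXR receptors and targets with a window, so its absence tells little. For SREBF1 only 1 window, near the 5′ end of the gene, was searched, and starts further into the gene were not. These are matches of letters in a short window and do not show binding.

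Over all 12920 genes tested with edgeR, 8.35% had a higher level in MUCP1-FLAG than in LV-NC and 7.71% a lower one at an adjusted p under 0.05. All 7 genes passed the filter on low counts, and 2 of them rose, 1 fell and 4 did not pass the test. INSIG1 and SREBF2 were the higher genes and SREBF1 the lower. In these 3 genes the 3 MUCP1-FLAG values lay apart from the 3 LV-NC values, which was also so for 33.1% of all tested genes. The 7 had a median of 0.03 on the log2 scale, beside −0.0042 for all tested genes. Levels below are CPM after TMM scaling, which sets library sizes by the bulk of the genes, unless FPKM, the authors' value scaled by length, is named. A fold change is on the log2 scale with its standard error after ±, positive where MUCP1-FLAG was higher. In bulk libraries, fewer cells that express a gene and less RNA per cell cannot be told apart.

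**Figure D1:**
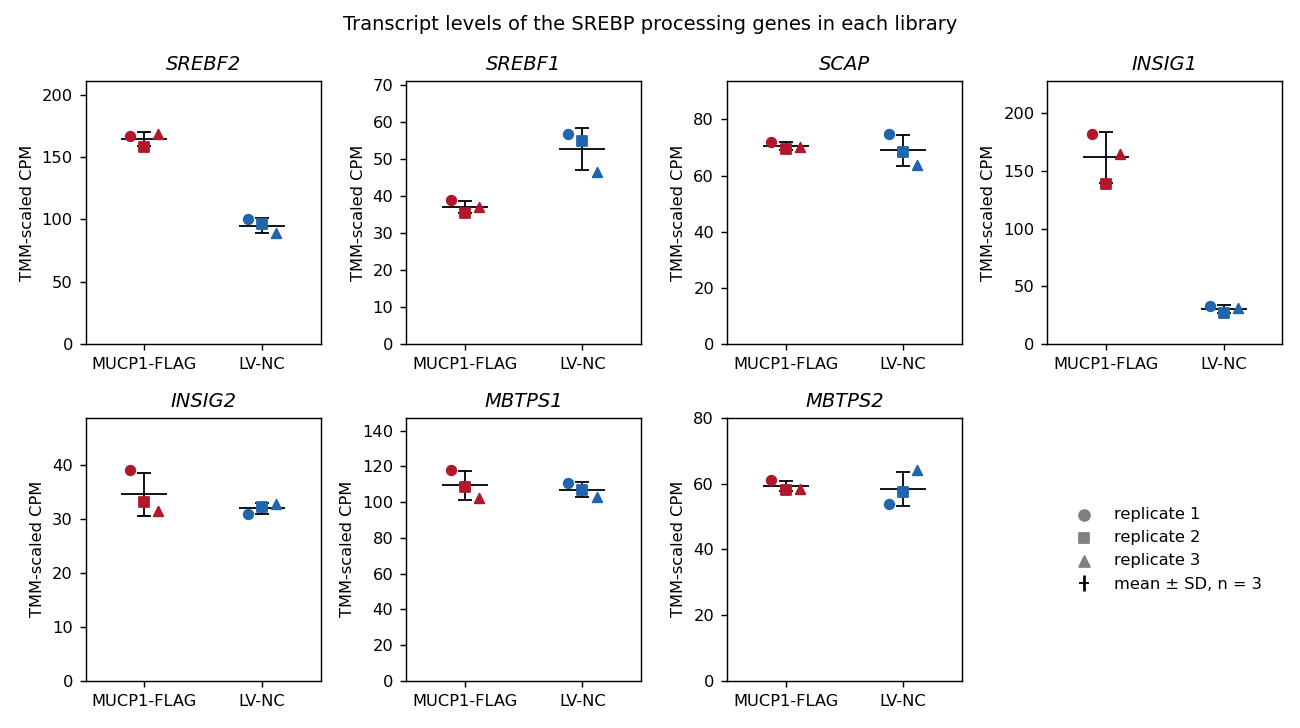
Level of each gene in TMM-scaled CPM (vertical axes, each from 0) in the MUCP1-FLAG and LV-NC libraries; points are libraries, lines are the mean ± SD of 3. INSIG1 and SREBF2 lay higher and SREBF1 lower in all MUCP1-FLAG libraries, while the groups overlapped for SCAP, INSIG2, MBTPS1 and MBTPS2.

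The retention protein INSIG1, which binds SCAP when sterols are abundant and is itself degraded when they run low, lies on chromosome 7 at 155297776 to 155310235 (GRCh38, plus strand, ENSG00000186480). It had 182, 138 and 165 CPM in MUCP1-FLAG replicates 1, 2 and 3, from 3143, 3178 and 3210 reads, against 33.1, 26.8 and 31.5 CPM in LV-NC replicates 1, 2 and 3, from 635, 578 and 602 reads. The lowest MUCP1-FLAG library was thus more than 100 CPM above the highest LV-NC library. The log2 fold change was 2.41 ± 0.11, or 5.31-fold with a 95% interval of 4.44 to 6.35 (edgeR adjusted p 1.19e-06). It was the second highest log2 fold change of the 12920 tested genes. INSIG1 also had the widest relative spread of the 7 among the MUCP1-FLAG libraries, with a coefficient of variation of 13.6% there and 10.8% in LV-NC. The medians of this measure over all tested genes were 5.22% in MUCP1-FLAG and 6.80% in LV-NC.

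INSIG2, the other retention protein, lies on chromosome 2 at 118088452 to 118110997 (plus strand, ENSG00000125629). Its levels were 39.0, 33.1 and 31.5 CPM in the MUCP1-FLAG libraries and 30.9, 32.1 and 32.7 CPM in the LV-NC libraries. The groups overlapped, with MUCP1-FLAG replicate 1 the highest and MUCP1-FLAG replicate 3 inside the LV-NC range. Its log2 fold change was 0.11 ± 0.08 (edgeR adjusted p 0.387), with a 95% interval of 0.963-fold to 1.21-fold. The interval leaves out a rise of the size of that of INSIG1. For INSIG2 the counts and the FPKM values deposited by the authors matched less well than for the other members: the length implied by their ratio varied between libraries by 8.65% (coefficient of variation), against at most 2.56% for the other 6 genes.

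Within a library, where scaling between libraries cancels, the log2 ratio of INSIG1 to INSIG2 in CPM was 2.23, 2.06 and 2.39 in MUCP1-FLAG and 0.10, −0.26 and −0.05 in LV-NC. The difference of the means was 2.30, a 4.91-fold change of the ratio. A two-sided exact permutation test over the 6 libraries gave p = 0.1, the smallest value that 3 against 3 libraries can give, and 0.15 adjusted over the 3 pairs compared. Per length, INSIG1 made up 84.2% ± 2.37 of the summed INSIG FPKM in MUCP1-FLAG and 52.6% ± 2.31 in LV-NC (SD, n = 3 each). The summed FPKM of both genes was 79.0 ± 11.8 in MUCP1-FLAG and 24.1 ± 2.36 in LV-NC, 3.27-fold higher in MUCP1-FLAG.

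**Figure D2:**
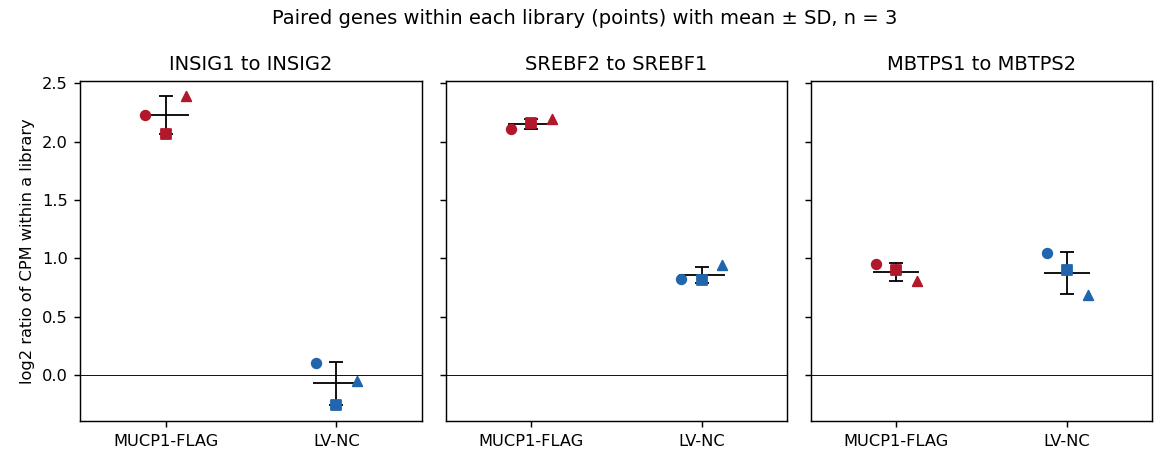
Log2 ratio of CPM within each library (vertical axis, shared by the panels) for 3 pairs of genes in MUCP1-FLAG and LV-NC; points are libraries, lines are the mean ± SD of 3. The ratios of INSIG1 to INSIG2 and of SREBF2 to SREBF1 were higher in all MUCP1-FLAG libraries, and those of MBTPS1 to MBTPS2 overlapped.

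SREBF2, the gene of the factor SREBP-2, lies on chromosome 22 at 41833079 to 41907308 (plus strand, ENSG00000198911). It had 167, 158 and 169 CPM in the MUCP1-FLAG libraries, against 100.2, 96.2 and 88.9 CPM in the LV-NC libraries. Both groups were tight and far apart, with coefficients of variation of 3.59% in MUCP1-FLAG and 6.04% in LV-NC. The log2 fold change was 0.79 ± 0.05, or 1.73-fold with a 95% interval of 1.60 to 1.87 (edgeR adjusted p 1.71e-09).

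SREBF1, the gene of the factor SREBP-1, lies on chromosome 17 at 17810399 to 17837002 (minus strand, ENSG00000072310). It had 38.8, 35.4 and 36.9 CPM in the MUCP1-FLAG libraries, against 56.8, 54.8 and 46.3 CPM in the LV-NC libraries. All MUCP1-FLAG values were lower, and LV-NC replicate 3 came nearest to them. The log2 fold change was −0.51 ± 0.07, or 0.702 of the LV-NC level with a 95% interval of 0.630 to 0.782 (edgeR adjusted p 5.59e-05). With limma on log2(FPKM + 0.1) without a mean trend the adjusted p was 0.0531, and in the other 15 alternatives it stayed under 0.05. An exon of RAI1 on the opposite strand overlaps an exon of SREBF1. Whether reads were counted by strand is not stated in the labels, so shared reads cannot be assigned. For RAI1 itself the log2 fold change was −0.13 ± 0.05 (edgeR adjusted p 0.116, and 0.0175 without LV-NC replicate 3).

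The factors thus moved in opposite directions. The log2 ratio of SREBF2 to SREBF1 was 2.11, 2.16 and 2.19 in MUCP1-FLAG and 0.82, 0.81 and 0.94 in LV-NC, a difference of 1.30 or 2.46-fold (exact permutation p = 0.1, adjusted p 0.15 over the 3 pairs). Its spread was small, with an SD of 0.04 in MUCP1-FLAG and 0.07 in LV-NC. Per length, SREBF2 held 77.4% ± 0.783 of the summed SREBF FPKM in MUCP1-FLAG and 58.7% ± 1.83 in LV-NC (SD, n = 3 each). The sum itself was 40.4 ± 1.61 FPKM in MUCP1-FLAG and 31.1 ± 2.52 in LV-NC.

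Each factor gene also carries, in an intron and on its own strand, a gene for a form of miR-33, a microRNA known to target the sterol exporter ABCA1. The mature forms from RefSeq (GRCh38.p14) are shown to compare their seeds, bases 2 to 8, which are in capitals.
hsa-miR-33a-5p, in SREBF2, chr22:41900949-41900969, plus strand: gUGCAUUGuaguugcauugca
hsa-miR-33b-5p, in SREBF1, chr17:17813897-17813916, minus strand: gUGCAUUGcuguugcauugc
The seed UGCAUUG was the same in both. The host of miR-33a rose and the host of miR-33b fell. The libraries measured the host mRNAs, and the mature microRNAs were not measured. The start of SREBF2 is further overlapped by exons of the antisense gene SREBF2-AS1, and no row of the deposited table is named SREBF2-AS1. As with SREBF1 and RAI1, shared reads cannot be assigned.

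The escort SCAP, which holds the sterol sensor and carries the precursors to the Golgi, lies on chromosome 3 at 47413694 to 47477126 (minus strand, ENSG00000114650). Its levels were 72.0, 69.4 and 70.3 CPM in MUCP1-FLAG and 74.9, 68.2 and 63.7 CPM in LV-NC. The MUCP1-FLAG values lay inside the range of the LV-NC values. The log2 fold change was 0.03 ± 0.06 (edgeR adjusted p 0.768), with a 95% interval of 0.936-fold to 1.12-fold. Set against SCAP per length, the summed INSIG FPKM was 4.35 ± 0.640 times that of SCAP in MUCP1-FLAG and 1.35 ± 0.139 times in LV-NC (SD, n = 3 each). The groups did not overlap in this ratio, which was 4.88, 3.64 and 4.51 in the MUCP1-FLAG libraries. These are ratios of mRNA, and protein was not measured.

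MBTPS1, the site-1 protease, a subtilisin-like enzyme that makes the first cut, lies on chromosome 16 at 84053761 to 84116906 (minus strand, ENSG00000140943). It had 118, 108 and 102 CPM in MUCP1-FLAG and 111, 107 and 103 CPM in LV-NC, and the groups overlapped. Its log2 fold change was 0.03 ± 0.06 (edgeR adjusted p 0.769), with a 95% interval of 0.940-fold to 1.11-fold. MBTPS2, the site-2 protease, a metalloprotease that cuts within the membrane, lies on chromosome X at 21839636 to 21885424 (plus strand, ENSG00000012174). It had 61.0, 58.1 and 58.6 CPM in MUCP1-FLAG and 53.8, 57.4 and 64.1 CPM in LV-NC, so the MUCP1-FLAG values lay within the LV-NC range. The log2 fold change of MBTPS2 was 0.02 ± 0.07 (edgeR adjusted p 0.879), with a 95% interval of 0.922-fold to 1.11-fold. Exons of YY2, a gene on the same strand with 38 to 60 reads per library, overlap MBTPS2, which had 1032 to 1335 reads.

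The log2 ratio of MBTPS1 to MBTPS2 was 0.88 ± 0.07 in MUCP1-FLAG and 0.88 ± 0.18 in LV-NC (SD, n = 3 each). The difference of 0.01 had an exact permutation p of 1. For the 4 genes that did not pass the test, the highest upper limit of a 95% interval was 1.21-fold, for INSIG2, and the lowest lower limit was 0.922-fold, for MBTPS2.

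**Figure D3:**
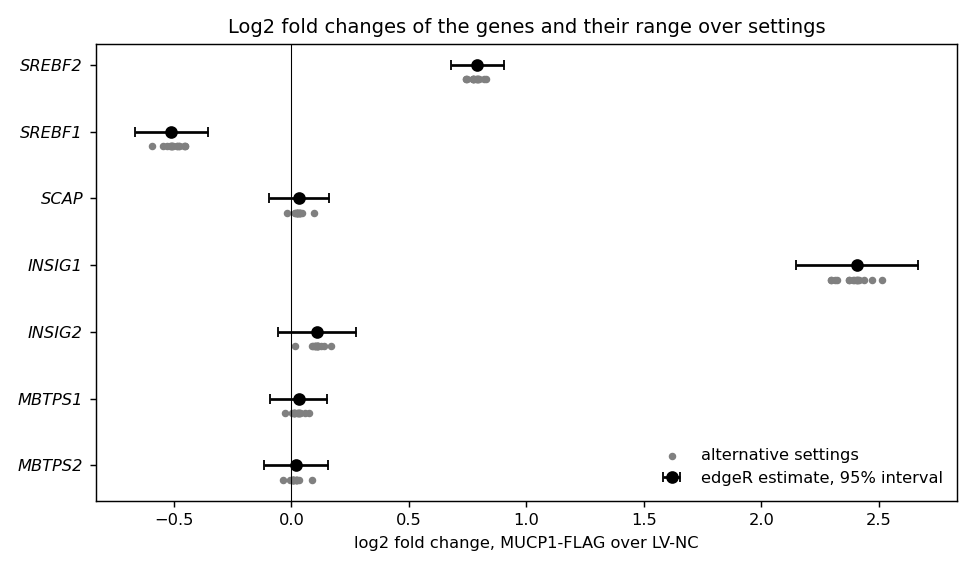
Log2 fold change of each gene, MUCP1-FLAG over LV-NC (horizontal axis), with its 95% interval from edgeR in black and the values under the 16 alternative settings in grey. INSIG1 stands at 2.41, SREBF2 at 0.79 and SREBF1 at −0.51, and the intervals of the other 4 genes include 0.

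The order of the genes by length-scaled level differed between the groups. In MUCP1-FLAG, INSIG1 came first at 55.0 to 75.5 FPKM, followed by SREBF2 at 29.7 to 32.2, MBTPS1 at 23.3 to 27.2 and SCAP at 17.6 to 18.5 FPKM, with no overlap between neighbours. MBTPS2 at 12.9 to 13.7 FPKM and INSIG2 at 10.5 to 14.9 FPKM overlapped, and SREBF1 came last at 8.85 to 9.61 FPKM. In LV-NC, MBTPS1 came first at 23.8 to 25.8 FPKM. SREBF2 at 17.2 to 19.2 FPKM and SCAP at 16.4 to 19.7 FPKM followed and overlapped. The other 4 genes lay close together in LV-NC, with MBTPS2 at 12.1 to 14.6, SREBF1 at 11.1 to 13.8, INSIG1 at 10.9 to 13.7 and INSIG2 at 10.7 to 12.6 FPKM, and their ranges overlapped. Per length, the level of INSIG1 was 5.43 ± 1.04 times that of INSIG2 in MUCP1-FLAG and 1.11 ± 0.105 times in LV-NC (SD, n = 3 each).

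**Figure D4:**
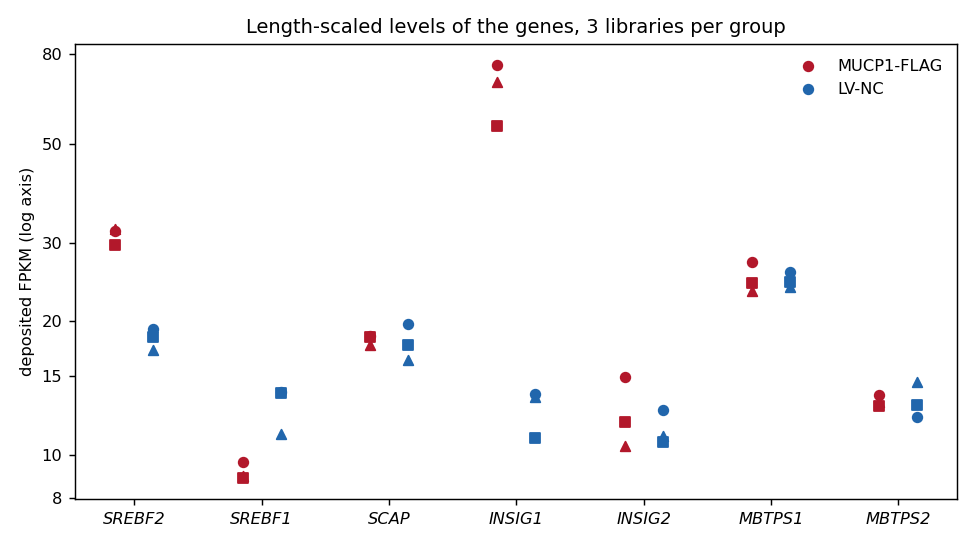
Deposited FPKM of each gene on a log axis (vertical), with MUCP1-FLAG left of LV-NC for each gene and 1 point per library. INSIG1 is the highest of the 7 in MUCP1-FLAG at 55.0 to 75.5 FPKM and lies among the lower 4 in LV-NC at 10.9 to 13.7 FPKM, and SREBF1 is the lowest in MUCP1-FLAG.

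Other genes of the pathway were counted in 7 lists of 95 genes, of which 93 were tested. The lists were drawn up with earlier results of these data known, so their counts describe the setting of the 7 genes and are no independent support. In the list for degradation of INSIG1 and other sterol-regulated proteins of the endoplasmic reticulum, 2 of 13 genes rose and 2 fell, and the median was 0.09 on the log2 scale. The ubiquitin-conjugating enzyme UBE2G2 was lower, at 86.7 ± 5.84 CPM in MUCP1-FLAG and 103 ± 1.17 in LV-NC (−0.25 ± 0.06, edgeR adjusted p 0.00377). RNF139, the ubiquitin ligase TRC8, had −0.22 ± 0.07 (adjusted p 0.0380). The extraction ATPase VCP had 0.16 ± 0.04 (adjusted p 0.0166) and its cofactor UFD1 0.18 ± 0.06 (adjusted p 0.0454). The adjusted p of UFD1 exceeded 0.05 in 13 of the 16 alternatives, that of RNF139 in 11, that of VCP in 7 and that of UBE2G2 in 2. The shares over the whole table were 8.35% and 7.71%.

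None of the 12 genes of the COPII coat, which buds the vesicles that carry SCAP, was called by edgeR, by DESeq2 or by limma, and 1 had an unadjusted p under 0.05. Their log2 fold changes ran from −0.06 to 0.14, and those with the smallest p were SEC24D (0.14 ± 0.06, adjusted p 0.165) and SEC13 (0.11 ± 0.06, adjusted p 0.197). Among 13 cofactors and other regulators 3 rose, where 8.35% of all tested genes did. The phosphatidate phosphatase LPIN1, which can keep SREBP activity low in the nucleus, rose to 75.1 ± 5.79 CPM in MUCP1-FLAG, against 37.7 ± 2.87 in LV-NC (0.99 ± 0.07, edgeR adjusted p 2.90e-09). HSP90B1, a chaperone of the endoplasmic reticulum, rose by 0.30 ± 0.04 (adjusted p 5.12e-05), and NFYA, a subunit of the factor that binds CCAAT boxes, by 0.29 ± 0.07 (adjusted p 0.00810). The acetyltransferase EP300 had −0.12 ± 0.06 (adjusted p 0.160). NFYA was not called in 6 of the 16 alternatives, with an adjusted p of at most 0.207, and HSP90B1 not in 1 (0.0519).

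Over all tested genes 7.71% were called lower. Of 7 tested genes for other substrates of the site-1 and site-2 proteases 1 was called lower, with a list median of −0.06. This was GNPTAB, a phosphotransferase of lysosomal sorting that the site-1 protease cuts, at 34.1 ± 0.140 CPM in MUCP1-FLAG and 39.7 ± 3.11 in LV-NC (−0.22 ± 0.07, edgeR adjusted p 0.0399), and it was not called in 11 of the 16 alternatives. The stress factors ATF6 and ATF6B had −0.12 ± 0.06 (adjusted p 0.163) and −0.11 ± 0.06 (adjusted p 0.255), and CREB3L4 had 0.24 ± 0.19 (adjusted p 0.420). CREB3L3 did not pass the filter on low counts.

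Over all tested genes 8.35% rose and 7.71% fell in edgeR. Of 23 sterol genes that SREBP-2 is known to activate, 22 rose, and the median was 1.16 on the log2 scale. The exception was PMVK, phosphomevalonate kinase (0.02 ± 0.12, edgeR adjusted p 0.938). Those named here are MSMO1 (1.93 ± 0.07, edgeR adjusted p 1.15e-12), the thiolase ACAT2 (1.72 ± 0.07) and squalene epoxidase, SQLE (1.44 ± 0.07). Of 14 tested fatty acid genes that SREBP-1 is known to activate, 11 rose, with a median of 0.34, while SREBF1 itself fell. ACACA (−0.03), GPAM (0.11) and FABP5 (0.14) were not called, and THRSP did not pass the filter on low counts. The desaturases SCD and FADS1 had 1.03 ± 0.06 and 0.72 ± 0.05, and the acyl-CoA synthetases ACSS2 and ACSL1 0.73 ± 0.07 and 0.35 ± 0.05 (edgeR adjusted p 1.27e-05 for ACSL1, the highest of the 4). Of 11 LXR receptors and targets 6 fell in edgeR, with a median of −0.21, against 4 with DESeq2 and 4 with limma without a mean trend. None was called higher by these tools, nor at an unadjusted p under 0.05 in edgeR. The 6 were NR1H3, which encodes LXRα (−0.46 ± 0.14, edgeR adjusted p 0.0291), the exporters ABCG1 (−2.89 ± 0.26) and ABCA1 (−2.43 ± 0.44), the ligase MYLIP, which degrades the LDL receptor (−1.16 ± 0.16), the transfer protein PLTP (−0.42 ± 0.07), and LPCAT3, a lysophospholipid acyltransferase (−0.21 ± 0.07). NR1H3 and LPCAT3 were each not called in 6 of the 16 alternatives, with an adjusted p of at most 0.133 for NR1H3 and 0.169 for LPCAT3. ABCA1 was low, at 0.257 ± 0.168 CPM in MUCP1-FLAG and 1.45 ± 0.490 in LV-NC. It was not called in 3 of 15 alternatives, with an adjusted p of at most 0.224. Over the 15 its log2 fold change ran from −3.11 to −0.16. On log2(FPKM + 1) its log2 fold change was −0.16, with an adjusted p of 0.157 by limma. ABCG1 was low too in MUCP1-FLAG, at 0.740 ± 0.152 CPM, against 5.58 ± 1.53 in LV-NC. The log2 fold change of ABCG1 ran from −3.08 to −1.18 over 15 alternatives, and it was called in each.

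**Figure D5:**
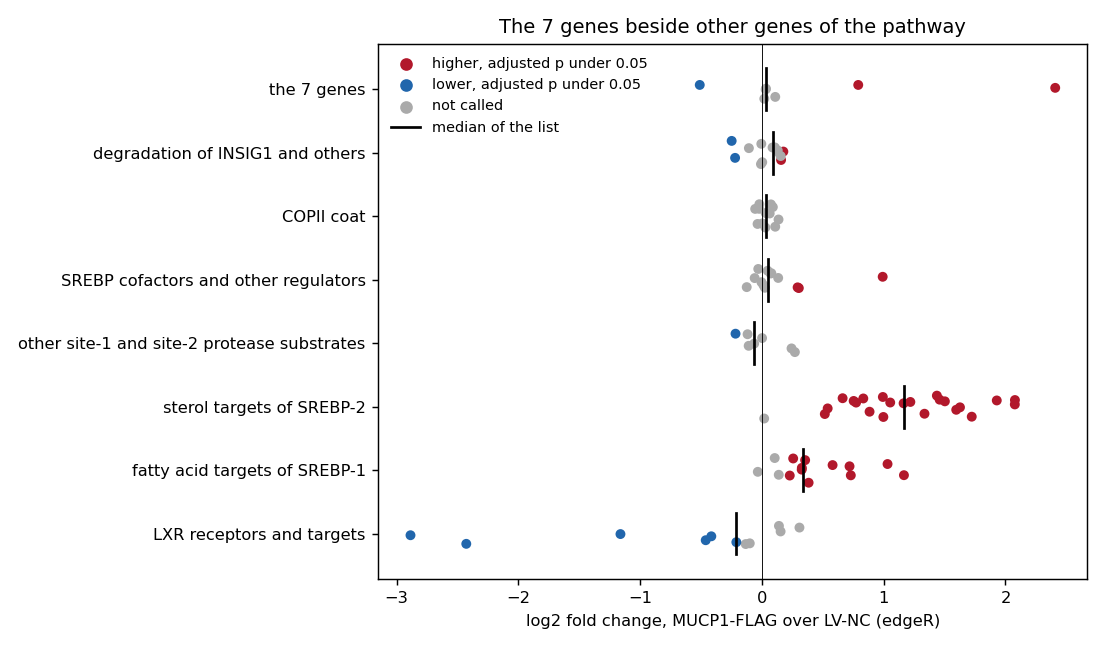
Log2 fold change, MUCP1-FLAG over LV-NC (horizontal axis), of the 7 genes and of the tested genes of 7 lists (rows); red points were called higher, blue points lower and grey points not called at an edgeR adjusted p under 0.05, and the bar is the median. The sterol list centres at 1.16 and the fatty acid list at 0.34, while the COPII coat and the protease substrates lie near 0, as do 4 of the 7 genes.

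The genes most like INSIG1, SREBF2 and SREBF1 in profile were found by the root mean square distance between log2 CPM values over the 6 libraries, each gene centred on its own mean, among 11537 genes. Among those nearest to INSIG1 were HMGCS1, a synthase of the mevalonate pathway (distance 0.17), MSMO1 (0.25) and ACAT2 (0.35), where the median distance of all genes to INSIG1 was 1.21. These 3 belong to the list of sterol genes above. Nearest to SREBF2, with a median distance of 0.41, were TMEM97, a sterol-regulated membrane protein (0.03), the interferon-induced IFITM1 (0.04), FADS1 (0.05), ERG28 (0.05), which takes part in sterol synthesis, and the transcription factor CEBPD (0.05). Their log2 fold changes were 0.72 to 0.81. Nearest to SREBF1, with a median of 0.29, were the early factor EGR4 (0.03), MAB21L4, MIDN, the ERK phosphatase DUSP5 and TAGLN, an actin-binding protein (0.05 each), with log2 fold changes of −0.56 to −0.48. No member of the lists was among the 5 nearest to SREBF1. Genes with a like difference between the groups come out as near in this measure.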

How the data were processed

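RNA from 6 SW480 libraries, 3 MUCP1-FLAG and 3 LV-NC, was measured by mRNA sequencing. The authors deposited read counts for each gene, as whole numbers, beside FPKM values. GRCh38 is the build in the submitters' processing notes, which list as tools DESeq2, featureCounts, HISAT2 and fastp with no version or role; annotation and strand setting are not stated there. The authors' deposited table also holds their own log2 fold change, p-value and adjusted p-value; the first equals the log2 ratio of the mean FPKM of the groups for 20289 of 20289 genes (within 0.001, after a floor of 0.001 FPKM).

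Counts were tested with edgeR 4.0.16 in R 4.3.3 (quasi-likelihood F test, robust, TMM scaling, filterByExpr with a minimum count of 10), with Benjamini-Hochberg adjustment over 12920 genes and a threshold of 0.05. Standard errors are the size of the log2 fold change over the square root of F. The fit was also run on simulated counts with the same dispersion for all genes, which does not copy the spread of single genes in these data. Alternatives used DESeq2 1.42.0, limma 3.58.1 on FPKM, other scalings and filters, a replicate block and the omission of each library. Exact permutation tests were two-sided. Coordinates are from GENCODE on GRCh38.

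The genes and lists were chosen with earlier results of these data known. Named genes were the 7 members, the 4 genes of smallest adjusted p in each list with a call (2 in others), and the 5 nearest profiles of 3 members with a mean of at least 2 CPM and a prior count of 0.5. NR1H3, LPCAT3, PMVK, ACACA, GPAM, FABP5, THRSP, CREB3L3, RAI1 and YY2 were named in addition, after their values were seen. Some genes that the rule names are not reported here.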

Additional observations from a re-analysis of the deposited data

How the results depend on the processing

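INSIG1 and SREBF2 were called higher under each of the 16 alternatives, with log2 fold changes of 2.30 to 2.51 and 0.75 to 0.83. SREBF1 kept its direction in all 16 (−0.59 to −0.45) and was called in 15, the exception being limma on log2(FPKM + 0.1) (−0.49, adjusted p 0.0531), where 0 of the 7 genes were called lower. The cause was not tested, and with a mean trend, chosen after seeing the data, the adjusted p was 0.0133. SCAP, INSIG2, MBTPS1 and MBTPS2 were called in none. Over the whole table, limma without a trend called 380 higher and 440 lower on log2(FPKM + 1) and 248 and 351 on log2(FPKM + 0.1), and with a trend 514 and 544, and 516 and 549. Without 1 library the calls were 639 to 1323 higher and 624 to 1213 lower, the lowest without MUCP1-FLAG replicate 3 (639 and 624), and 671 higher without LV-NC replicate 2. No shared batch or day is labelled. Same-numbered libraries correlated in their deviations by 0.08, 0.03 and −0.01. Not every library correlated best with its own number, so the numbers were not taken as pairs. With the replicate block 1005 genes were higher and 954 lower, and INSIG1 had 2.40 (adjusted p 1.39e-15), SREBF2 and SREBF1 being called too. The paired differences of the log2 ratios were 2.30, 1.30 and 0.01 (exact p 0.25, the smallest for 3 pairs, for the first 2).

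Over the 7 lists together the 9 lower calls became 5 with DESeq2, 4 with limma without a trend at either pseudocount, and 5 to 8 without 1 library (5 without MUCP1-FLAG replicate 3 or LV-NC replicate 2). In the degradation list 1 gene was higher with library totals only, the stricter filter of 5 CPM, DESeq2 or the replicate block and 0 with limma, with or without a trend. There 1 was lower with DESeq2, the replicate block or limma with a trend, and 0 with limma without one. Leaving out 1 library gave 0 to 2 higher and 1 to 2 lower. Of the protease substrates 0 were lower with DESeq2, limma in all 4 forms and the replicate block, and 0 to 1 without 1 library. On log2(FPKM + 0.1) without a trend 1 of the cofactors and 6 of the fatty acid genes were higher, and 0 to 1 of the LXR genes were higher without 1 library (1 without LV-NC replicate 1).

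Of 33 other genes of the naming rule and the additional names that were called, 12 lost the call in at least 1 alternative and none changed sign. Of 12 that were not called, PMVK, ACACA and YY2 changed sign in some, and FABP5 and RAI1 were called without LV-NC replicate 3 (adjusted p 0.0339 and 0.0175). Genes named as cell markers were not refitted. With 3 libraries a group the precision for single genes is limited, and whatever else differed between the cultures of the groups cannot be told apart from the overexpression.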

Other observations

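Within each group, the library with the lowest or highest INSIG1 level was also that of many of the sterol genes. Only 3 libraries a group could be ranked, and joint variation was not tested. In MUCP1-FLAG, replicate 2 had the lowest INSIG1 level, and it was also the lowest library for 21 of the 23 sterol genes and for 33.2% of all tested genes. The highest INSIG1 level of MUCP1-FLAG was in replicate 1, as for 17 of the 23 sterol genes and 34.5% of all tested genes. In LV-NC, replicate 2 was the lowest for INSIG1, for 14 of the 23 and for 23.3% of all tested genes, and replicate 1 the highest for INSIG1, for 16 of the 23 and for 37.9% of all. SREBF2, SREBF1, SCAP and MBTPS2 were lowest in MUCP1-FLAG replicate 2 too. All members but SREBF2 were highest in MUCP1-FLAG replicate 1. In LV-NC, SREBF2, SREBF1, SCAP and MBTPS1 were lowest in replicate 3. MUCP1-FLAG replicate 2 was also the most deeply sequenced library, with 23282604 counts, and LV-NC replicate 2 was the deepest of its group (21534908). MUCP1-FLAG replicate 1 was the shallowest library (17333329). In LV-NC the shallowest was replicate 3 (18867369), not replicate 1. The part of depth in this pattern was not tested.

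In the authors' deposited table the same 3 members were past an adjusted p of 0.05, INSIG1 at a log2 fold change of 2.39, SREBF2 at 0.78 and SREBF1 at −0.50, and the other 4 had adjusted p-values of 0.650 to 0.943 there.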
